A study of Homo sapiens with 12 samples.

Results

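The genes described here encode 8 proteins that shorten the life of messenger RNAs: the AU-rich element binders ZFP36, ZFP36L1 and ZFP36L2, the deadenylation adaptors BTG1 and BTG2, the Regnase endonucleases ZC3H12A and ZC3H12C, and the stem-loop binder RC3H1 (Roquin-1). They were chosen by their shared function, with their responses to CO2 and LPS in these same libraries already known, so the levels and tests below describe them and give no independent support for any pattern. All 8 were found among the 57500 gene identifiers of the count tables, and all 8 were among the 16402 genes that passed the filter on low counts.

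The libraries came from THP-1, an established human monocytic leukaemia cell line, carrying a lentiviral non-target shRNA in all 4 groups. Cells were kept in buffered medium in chambers at 5% CO2 (normocapnia) or 10% CO2 (hypercapnia) for 4 h. In 1 group at each CO2 level, LPS (bacterial lipopolysaccharide, an agonist of Toll-like receptor signalling) was present at 2.5 µg/ml for the last 2 h. Poly(A)-selected RNA was sequenced in 3 libraries per group, 12 in all, and the study asked how hypercapnia alters monocyte gene expression with and without this inflammatory stimulus. The line had been transduced with a control construct, and no untransduced cells were among these samples.

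AU-rich elements and short stem-loops in the untranslated ends of cytokine and growth-control mRNAs mark them for rapid destruction. ZFP36 (tristetraprolin) and its paralogues bind AU-rich elements through a pair of CCCH zinc fingers and recruit the CCR4-NOT deadenylase, while BTG1 and BTG2 link that deadenylase to poly(A)-binding protein. ZC3H12A (Regnase-1) cuts stem-loops in mRNAs such as that of IL6 with a PIN-type nuclease domain, ZC3H12C (Regnase-3) is its paralogue, and RC3H1 binds related stem-loops and recruits the deadenylase. In monocytes and macrophages several of these genes are themselves induced by inflammatory signals and limit the cytokine response, and the activity of ZFP36 and ZC3H12A also depends on phosphorylation and protein turnover, which RNA sequencing does not measure.

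The libraries held 17.1 to 22.2 M assigned counts. Taken as the floor of detection, 3 counts corresponded to 0.135 to 0.175 counts per M assigned counts, without TMM scaling, which covers counting error only. All other CPM values are TMM-normalised counts per M counts. Of 12 monocytic line markers, 11 exceeded 5 CPM in at least 1 library, while CD68 lay between group means of 1.498 and 1.774 CPM and CD14 between 6.66 and 10.9 CPM. Of 24 markers of T, B, NK, erythroid, fibroblast and epithelial cells, HBA1 had no count in any library and 17 stayed under 1 CPM in every library. The NK marker NKG7 was present at group means of 12.8 to 13.4 CPM. The mitochondrial share of counts was higher at 10% CO2 (2.01 to 3.05% without LPS and 2.28 to 4.15% with LPS) than at 5% CO2 (1.31 to 1.96% and 1.28 to 1.78%); its part in the CO2 results below was not tested. The labels do not say whether replicates were separate cultures, and p-values therefore measure the spread between these libraries, which may be technical. In bulk RNA, fewer cells of a type and less RNA per cell cannot be told apart.

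RefSeq start sites were given for 7 of the 8 genes, in 9 promoter windows of 300 bases (250 before to 50 after the start, build GRCh38.p14). ZFP36L2 had no window and was not searched for motifs. The sequences before ZFP36, BTG2 and ZC3H12A are shown because these genes gave the CO2 difference common to both LPS conditions and the largest LPS increases. Each run is 5′ to 3′ on the plus strand, which is the coding strand of all 3, and ends just before the gene's first base in the count tables, so bases that the tables place inside the gene are left out. Capitals mark the GC box GGGCGG or its reverse complement. The first lies at chr19:39406597-39406812, the second at chr1:203305269-203305490 and the third at chr1:37474330-37474551.
ZFP36: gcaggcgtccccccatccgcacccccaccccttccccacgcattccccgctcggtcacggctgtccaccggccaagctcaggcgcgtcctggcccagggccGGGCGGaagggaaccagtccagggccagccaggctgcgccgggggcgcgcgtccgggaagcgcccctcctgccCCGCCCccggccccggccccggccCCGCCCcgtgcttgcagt
BTG2: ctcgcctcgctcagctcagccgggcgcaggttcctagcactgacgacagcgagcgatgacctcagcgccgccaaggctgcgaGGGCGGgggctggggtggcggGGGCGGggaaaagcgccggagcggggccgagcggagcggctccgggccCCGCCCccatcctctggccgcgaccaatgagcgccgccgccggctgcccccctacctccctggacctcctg
ZC3H12A: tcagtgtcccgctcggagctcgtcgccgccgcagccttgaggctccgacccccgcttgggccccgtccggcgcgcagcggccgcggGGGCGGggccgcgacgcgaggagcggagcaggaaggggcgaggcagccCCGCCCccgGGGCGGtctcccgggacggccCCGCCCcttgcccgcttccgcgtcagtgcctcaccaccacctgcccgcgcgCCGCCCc

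GC boxes, which SP-family factors are known to bind, were searched on both strands and matched in 5 of the 9 member windows, against 45.0% of the 35116 windows in the table. Counted from the RefSeq start, the matches began 149, 76 and 52 bases upstream in ZFP36, 168, 147 and 99 in BTG2, and 164, 116, 107, 86 and 35 in ZC3H12A. BTG1 had 1 match, 138 bases upstream, and ZC3H12C had matches 69 and 13 bases upstream. The letters TATAAA, found in 11.5% of all windows, matched 27 bases upstream in ZC3H12A (inside the stretch left out above), 33 bases upstream in BTG1 and 162 bases upstream in the RC3H1 window. That window, the second ZFP36L1 window and the second ZC3H12C window, 3 of the 9, lie inside the gene as the count tables place it. The cyclic AMP response element TGACGTCA, held by 1.85% of all windows, matched once, 52 bases upstream of the second ZFP36L1 start. The NF-κB motif matched 232 bases upstream in ZC3H12C, against 11.3% of all windows. No member window held the AP-1 motif TGANTCA (7.71% of all windows) or a CArG box (1.29%), which says only that these letters are not in these windows. A match describes the letters and not a bound site.

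At 5% CO2, exposure to LPS for 2 h raised 6 of the 8 genes and lowered 1, against 11.8% of all tested genes called higher and 13.1% called lower (edgeR quasi-likelihood test, Benjamini-Hochberg adjusted p under 0.05 over 16402 genes). At 10% CO2 it raised 7 and lowered 1, against 16.6% and 18.6% of all genes. The median log2 fold change of the 8 was 1.14 at 5% CO2 and 0.98 at 10% CO2, beside -0.01 and -0.02 for all genes. BTG2, ZC3H12A and ZC3H12C had the largest increases and ZFP36L2 was the member that fell. The plot of LPS fold changes shows this order at both CO2 levels. The 2 LPS comparisons use different control libraries, but each shares libraries with both CO2 comparisons, so the values are set side by side and not correlated.

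**Figure D1:**
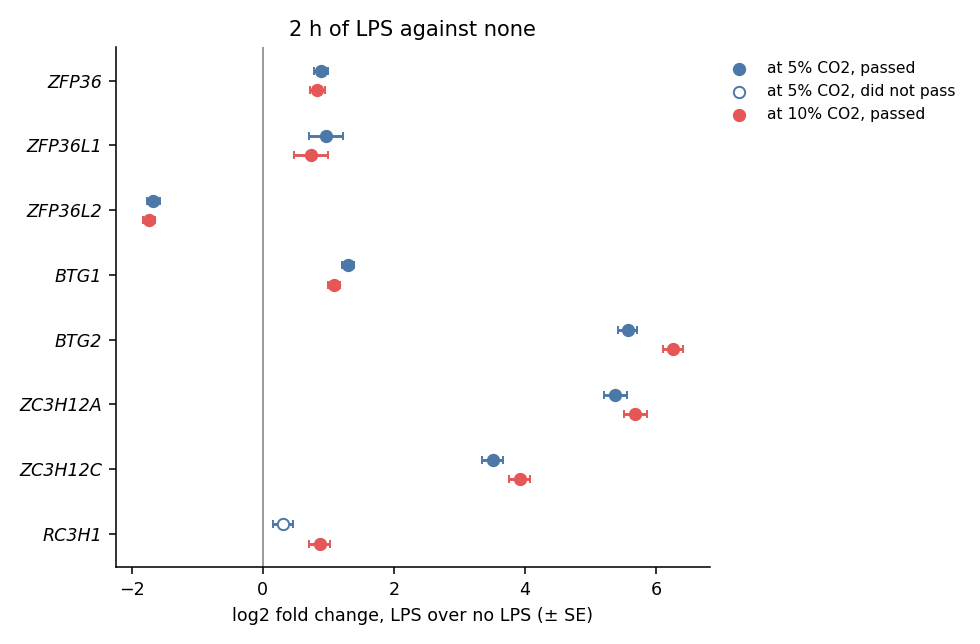
LPS response of the 8 genes. Points are edgeR log2 fold changes of LPS over no LPS (x axis, bars ± SE, 3 libraries a group) at 5% and 10% CO2, filled where the adjusted p was under 0.05; BTG2 lies at 5.57 and 6.26, ZFP36L2 at -1.67 and -1.74, and the open point is RC3H1 at 5% CO2.

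Fewer of them were called between the CO2 levels. Without LPS, 2 of the 8 genes were lower at 10% than at 5% CO2 (BTG2 and ZFP36), against 0.665% of all genes called lower, and none was higher, against 0.799% of all genes. With LPS, ZFP36 was the 1 member called lower, against 4.46% of all genes, and none was called higher, against 4.29%. DESeq2 gave the same counts of members in both comparisons, and at an unadjusted p under 0.05 there were 3 members in each, with none of them higher, against 17.4% of all genes without LPS and 24.9% with LPS in either direction. All 8 genes had a negative value without LPS (median -0.23, all genes -0.01), and 4 of 8 did with LPS (median -0.11, all genes -0.01). Without LPS, BTG1 (-0.02 ± 0.09) and ZFP36L1 (-0.03 ± 0.26) lay within their SE of no change. Both were positive in some alternative analyses, reaching 0.03 and 0.26. The 3 libraries at 10% CO2 lay wholly below the 3 at 5% CO2 for 3 members without LPS (ZFP36, ZFP36L2 and BTG2), as for 10.2% of all genes. With LPS they lay wholly below for 3 (ZFP36, ZFP36L2 and BTG1), as for 15.2% of all genes, and wholly above for 2 (ZC3H12A and RC3H1), as for 16.2%.

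**Figure D2:**
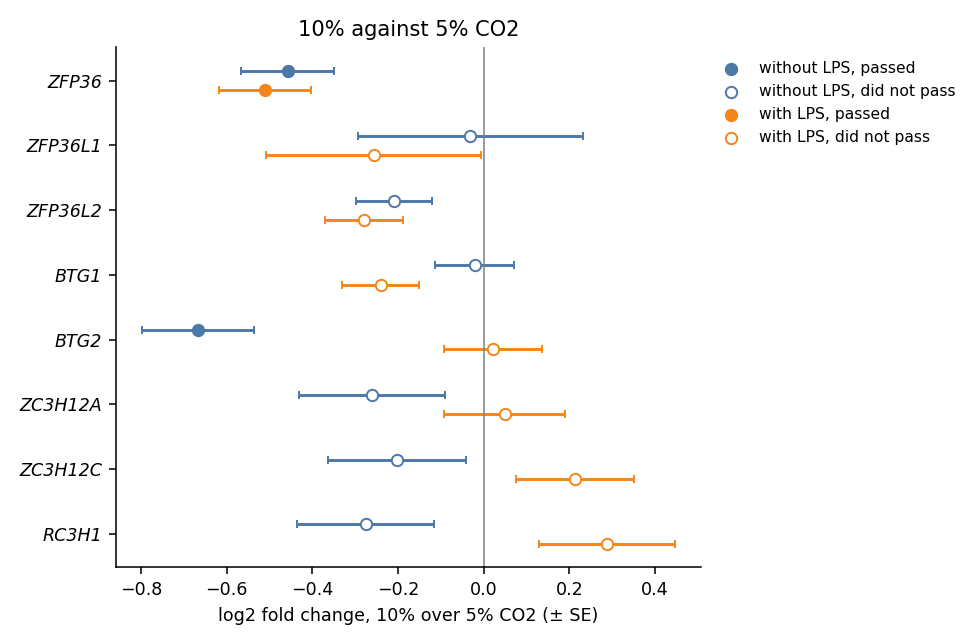
CO2 response of the 8 genes. Points are edgeR log2 fold changes of 10% over 5% CO2 (x axis, bars ± SE, 3 libraries a group) without and with LPS, filled where the adjusted p was under 0.05; ZFP36 is at -0.46 and -0.51 and passed in both, BTG2 is at -0.67 without LPS and 0.02 with it.

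ZFP36, the AU-rich element binder tristetraprolin, was lower in hypercapnia whether or not LPS was present. Its gene (ENSG00000128016) lies on the plus strand at chr19:39406813-39409412 of GRCh38. Without LPS it stood at 82.6, 91.9 and 72.1 CPM in replicates 1 to 3 at 5% CO2 and at 55.9, 54.9 and 68.7 CPM at 10% CO2, so every library at 10% CO2 lay below every library at 5% CO2. It fell by 0.46 ± 0.11 on the log2 scale (SE, n = 3 and 3; edgeR adjusted p = 0.0432), to 59.8 ± 7.66 from 82.2 ± 9.91 CPM (mean ± SD). This call lay close to the threshold and was lost in 9 of 19 alternative analyses. They were the fit to the compared groups alone (adjusted p = 0.110) and the fits without 1 library, whose adjusted p was 0.0675 and 0.257 without replicates 1 and 2 at 10% CO2, 0.149 and 0.148 without replicates 1 and 2 at 5% CO2, 0.0571, 0.0530 and 0.0692 without replicates 1, 2 and 3 at 10% CO2 with LPS, and 0.0528 without replicate 1 at 5% CO2 with LPS. With LPS, ZFP36 stood at 152, 169 and 135 CPM at 5% CO2 and at 103, 111 and 106 CPM at 10% CO2, again with no overlap. It fell by 0.51 ± 0.11 (edgeR adjusted p = 0.00833), and the call was lost in 1 of 19 alternatives, without replicate 2 at 5% CO2 with LPS (adjusted p = 0.0582). The CO2 difference had the same sign in all 19 alternatives in both conditions.

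ZFP36 also rose with LPS, by 0.89 ± 0.11 on the log2 scale at 5% CO2 (edgeR adjusted p = 4.15e-06) and by 0.83 ± 0.11 at 10% CO2 (adjusted p = 6.51e-06). The LPS libraries lay above the unstimulated ones at each CO2 level. The LPS-treated cells at 10% CO2 (107 ± 4.21 CPM) stood between the unstimulated and the LPS-treated cells at 5% CO2. The difference between the 2 LPS effects was -0.05 ± 0.15 (edgeR adjusted p = 0.985).

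ZFP36L2, the paralogue with the highest level in unstimulated cells, moved in the opposite direction under LPS. The gene (ENSG00000152518) lies on the minus strand at chr2:43222402-43226609. It stood at 503, 455 and 471 CPM at 5% CO2 and at 150.0, 164 and 136 CPM at 5% CO2 with LPS. All LPS libraries were far below the others, and it fell by 1.67 ± 0.09 on the log2 scale (edgeR adjusted p = 4.66e-11). At 10% CO2 it stood at 452, 365 and 419 CPM without LPS and at 128, 127 and 115 CPM with it, a fall of 1.74 ± 0.09 (edgeR adjusted p = 2.19e-11). The libraries at 10% CO2 lay below those at 5% CO2 in both conditions, but the CO2 difference did not pass the test, at -0.21 ± 0.09 without LPS (edgeR adjusted p = 0.230) and -0.28 ± 0.09 with LPS (adjusted p = 0.0614). With LPS it did pass in 5 of 19 alternatives, among them the fits without the filter on low counts (adjusted p = 0.0370), to the compared groups alone (0.0481), without replicate 1 at 10% CO2 (0.0409), and without replicate 3 at 5% CO2 with LPS (0.0325).

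ZFP36L1, the third member of the family, was the lowest of the 3 and the least even between replicates. The gene (ENSG00000185650) lies on the minus strand at chr14:68787660-68796253. It stood at 16.1, 9.43 and 10.1 CPM at 5% CO2, 13.1, 9.28 and 12.5 CPM at 10% CO2, 31.8, 22.4 and 15.7 CPM at 5% CO2 with LPS, and 22.2, 17.4 and 18.9 CPM at 10% CO2 with LPS. Replicate 1 at 5% CO2 lay above replicate 3 at 5% CO2 with LPS, so those groups overlapped, whereas the groups at 10% CO2 did not. LPS raised it by 0.97 ± 0.26 at 5% CO2 (edgeR adjusted p = 0.0148) and by 0.74 ± 0.26 at 10% CO2 (adjusted p = 0.0415). The first call was lost in 3 of 19 alternatives: in the compared groups alone (adjusted p = 0.0718) and without replicate 2 (0.0679) or replicate 3 (0.0698) at 5% CO2. The second was lost in 8, each without 1 library: replicates 1, 2 and 3 at 10% CO2 (0.0707, 0.126 and 0.0969), replicates 1, 2 and 3 at 10% CO2 with LPS (0.114, 0.0508 and 0.0787), replicate 3 at 5% CO2 (0.0520) and replicate 2 at 5% CO2 with LPS (0.0513). The CO2 groups overlapped in both conditions, with differences of -0.03 ± 0.26 (edgeR adjusted p = 0.971) and -0.26 ± 0.25 (adjusted p = 0.571).

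Taken per exon length, the make-up of the ZFP36 family changed with LPS. ZFP36L2 made up 74.9% of the family's summed CPM per kilobase at 5% CO2 (72.1 to 77.1% over 3 libraries) and 77.6% at 10% CO2 (75.6 to 80.1%). With LPS it made up 33.7% (33.1 to 34.5%) and 37.0% (35.7 to 38.4%), while ZFP36 went from 23.8% to 62.6% at 5% CO2 and from 20.8% to 58.8% at 10% CO2. On this per-length scale ZFP36 was the leading family transcript in every LPS library and ZFP36L2 in every unstimulated one. The LPS order depended on dividing by the tables' exon length. In CPM with LPS, ZFP36 and ZFP36L2 stood at 152 and 150 at 5% CO2, and at 107 and 124 at 10% CO2. The family sum was 172 CPM per kilobase at 5% CO2 (165 to 180.2) and 121 with LPS (107 to 133). At 10% CO2 it was 143 (128 to 153) and 90.3 with LPS (87.4 to 93.2), with no overlap between the CO2 groups in either condition.

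BTG2, an adaptor of the CCR4-NOT deadenylase and an immediate early gene in many cell types, had the largest LPS response of the 8. The gene (ENSG00000159388) lies on the plus strand at chr1:203305491-203309602. It stood at 26.5, 25.9 and 22.5 CPM at 5% CO2 and at 1099.8, 1169 and 1285 CPM with LPS, a rise of 5.57 ± 0.14 on the log2 scale or 47.5-fold (edgeR adjusted p = 3.14e-15). The 2 groups lay far apart. In hypercapnia it stood at 19.5, 12.01 and 15.5 CPM and with LPS at 1253, 1220.1 and 1137 CPM, a rise of 6.26 ± 0.15 or 76.5-fold (edgeR adjusted p = 8.28e-16).

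In unstimulated cells BTG2 was lower in hypercapnia, with all 3 libraries at 10% CO2 below all 3 at 5% CO2. It fell by 0.67 ± 0.13 on the log2 scale (edgeR adjusted p = 0.0211), from 24.97 ± 2.15 to 15.7 ± 3.77 CPM. The call was lost in 5 of 19 alternatives: in the compared groups alone (adjusted p = 0.0787), without replicate 2 (0.146) or replicate 3 (0.0521) at 10% CO2, and without replicate 1 (0.119) or replicate 2 (0.0744) at 5% CO2. With LPS the CO2 groups overlapped (0.02 ± 0.11, edgeR adjusted p = 0.929). The difference between the CO2 effects with and without LPS was 0.69 ± 0.17 (unadjusted p = 0.000956), which did not pass over all genes (edgeR adjusted p = 0.276; DESeq2 adjusted p = 0.0593). It did pass in the fit without the filter on low counts (adjusted p = 0.000739) and without replicate 1 at 10% CO2 (adjusted p = 0.0152).

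No member passed the test of whether the CO2 effect depended on LPS in edgeR or in DESeq2, against 0.0244% of all genes in edgeR. At an unadjusted p under 0.05 there were 2, BTG2 and RC3H1, against 6.03% of all genes. The 4 genes with positive values were BTG2, RC3H1 (0.56 ± 0.22), ZC3H12C (0.42 ± 0.21) and ZC3H12A (0.31 ± 0.22), and both BTG1 and the ZFP36 family had negative ones (median of the 8 genes 0.13, all genes -0.01).

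BTG1, the paralogue of BTG2 and like it a partner of the CAF1 deadenylases, rose more modestly with LPS. The gene (ENSG00000133639) lies on the minus strand at chr12:92140278-92145897. It shares 503 exon bases with LINC01619 on the same strand and 325 with BTG1-DT on the opposite strand, but each of those had 9 counts in all libraries together, against 13626 for BTG1. It stood at 37.0, 33.7 and 35.5 CPM at 5% CO2 and at 95.9, 87.1 and 79.5 CPM with LPS, which are separate ranges. At 10% CO2 the gene stood at 36.7, 35.7 and 32.4 CPM and with LPS at 72.8, 76.1 and 73.3 CPM. LPS raised it by 1.30 ± 0.09 at 5% CO2 (edgeR adjusted p = 2.02e-09) and by 1.08 ± 0.09 at 10% CO2 (adjusted p = 2.17e-08). Without LPS the CO2 groups overlapped (-0.02 ± 0.09, edgeR adjusted p = 0.937). With LPS every library at 10% CO2 lay below every library at 5% CO2, but the difference of -0.24 ± 0.09 did not pass the test (edgeR adjusted p = 0.0987). It did pass after a correction for GC content, a setting added after the data were seen (adjusted p = 0.0145).

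Per exon length, BTG2 made up 55.3% of the BTG1 and BTG2 sum at 5% CO2 (52.7 to 57.5%) and 43.8% at 10% CO2 (37.2 to 48.4%). On this scale the gene with the higher mean differed between the CO2 levels in unstimulated cells, though their libraries overlapped at 10% CO2. That difference depended on dividing by the tables' exon length. In CPM without LPS, BTG1 stood above BTG2 at both CO2 levels, at 35.4 and 24.97 at 5% CO2 and at 34.9 and 15.7 at 10% CO2. With LPS, BTG2 made up 95.9% and 96.6% of the per-length sum. The sum of the pair was 16.4 CPM per kilobase at 5% CO2 and 12.9 at 10% CO2, and with LPS 448 and 452.

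**Figure D3:**
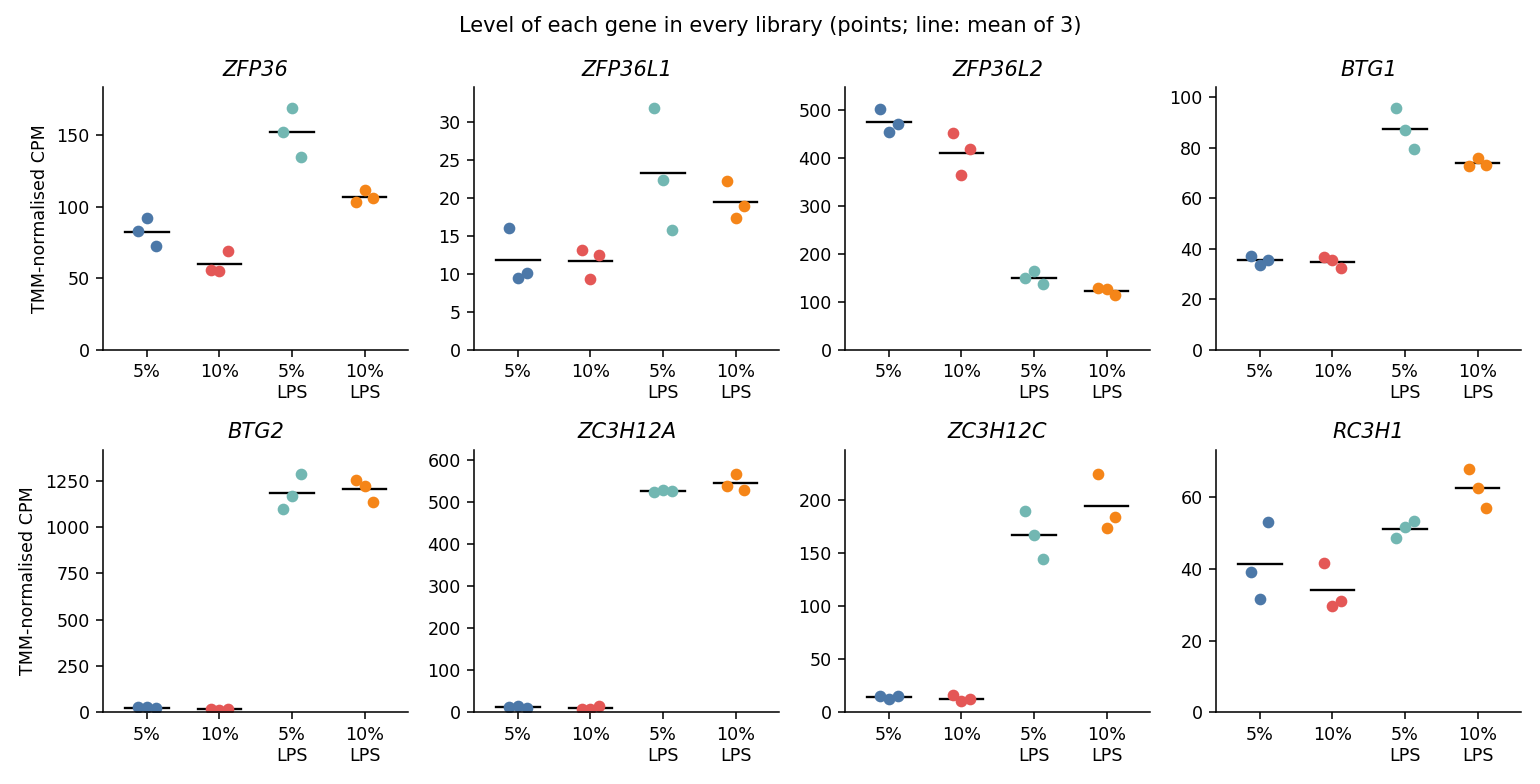
Level of each gene in every library. Points are TMM-normalised CPM on a linear y axis that starts at 0, with a scale of its own in each panel, in the 4 groups named on the x axis; lines are means of 3 libraries. The 3 ZFP36 points at 10% CO2 (54.9 to 68.7 CPM) lie below those at 5% CO2 (72.1 to 91.9 CPM), and ZFP36L2 falls with LPS where BTG2, ZC3H12A and ZC3H12C rise.

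ZC3H12A, the Regnase-1 endonuclease, rose with LPS almost as steeply as BTG2 and was very even between LPS libraries. The gene (ENSG00000163874) lies on the plus strand at chr1:37474552-37484379. It stood at 13.0, 15.1 and 10.1 CPM at 5% CO2 and at 524, 529 and 528 CPM with LPS, a rise of 5.38 ± 0.18 on the log2 scale (41.5-fold, edgeR adjusted p = 3.39e-12). The libraries at 10% CO2 stood at 8.70, 8.72 and 14.3 CPM and with LPS at 538, 568 and 530.4 CPM, a rise of 5.68 ± 0.18 (51.4-fold, edgeR adjusted p = 1.63e-12). Replicate 3 at 10% CO2 stood above the other 2 of its group and within the 5% CO2 range, so the unstimulated groups overlapped. The CO2 difference without LPS was -0.26 ± 0.17 (edgeR adjusted p = 0.460), and without that library it was -0.54 and passed (adjusted p = 0.0418). With LPS all 3 libraries at 10% CO2 lay above those at 5% CO2, by 0.05 ± 0.14 (edgeR adjusted p = 0.870).

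ZC3H12C, the Regnase-3 paralogue, followed the same course and stood lower with LPS. The gene (ENSG00000149289) lies on the plus strand at chr11:110093361-110171841. It stood at 15.6, 12.7 and 15.8 CPM at 5% CO2 and at 190.5, 168 and 145 CPM with LPS, a rise of 3.51 ± 0.16 (11.4-fold, edgeR adjusted p = 3.26e-11). At 10% CO2 it stood at 16.0, 10.3 and 12.1 CPM and with LPS at 225, 174 and 184 CPM, a rise of 3.92 ± 0.16 (15.2-fold, edgeR adjusted p = 7.77e-12). The LPS groups were separate from the unstimulated ones, and the CO2 groups overlapped in both conditions. The CO2 differences were -0.20 ± 0.16 without LPS (edgeR adjusted p = 0.548) and 0.21 ± 0.14 with LPS (adjusted p = 0.363). Per exon length, ZC3H12A made up 72.5% of the pair's sum at 5% CO2 and 71.4% at 10% CO2, and 90.8% and 89.7% with LPS. The unstimulated order depended on dividing by the tables' exon length. In CPM without LPS, ZC3H12C had the higher mean, 14.7 against 12.7 at 5% CO2 and 12.8 against 10.6 at 10% CO2, with overlapping libraries.

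RC3H1, which encodes Roquin-1, had the smallest LPS difference of the 8 at 5% CO2. The gene (ENSG00000135870) lies on the minus strand at chr1:173931214-174022297. It stood at 39.2, 31.6 and 53.0 CPM at 5% CO2 and at 48.5, 51.6 and 53.4 CPM with LPS, ranges that overlapped through replicate 3 at 5% CO2. The LPS difference there was 0.31 ± 0.16 (edgeR adjusted p = 0.181). It passed in 3 of 19 alternatives, among them the fits without that library (adjusted p = 0.0119) and without the filter on low counts (0.0396). In hypercapnia the levels were 41.8, 29.6 and 31.0 CPM and with LPS at 67.8, 62.7 and 57.0 CPM, with no overlap, a rise of 0.87 ± 0.16 (edgeR adjusted p = 0.000443). The difference between the LPS effects did not pass the test (edgeR adjusted p = 0.755), so RC3H1 was not shown to respond to LPS differently at the 2 CO2 levels. Its CO2 differences were -0.28 ± 0.16 without LPS (edgeR adjusted p = 0.394), where the groups overlapped, and 0.29 ± 0.16 with LPS (adjusted p = 0.274), where every library at 10% CO2 lay above those at 5% CO2.

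Levels of different genes were compared per kilobase of exon, as CPM per kilobase. In unstimulated cells at 5% CO2, ZFP36L2 was highest at 129 ± 6.54 and ZFP36 next at 40.9 ± 4.93, followed by BTG2 (9.06 ± 0.78), BTG1 (7.30 ± 0.34), ZC3H12A (4.08 ± 0.80), RC3H1 (3.59 ± 0.94), ZFP36L1 (2.30 ± 0.71) and ZC3H12C (1.51 ± 0.18; SD, n = 3). The libraries of ZC3H12A and RC3H1, and of RC3H1 and ZFP36L1, overlapped, and the other neighbours did not. At 10% CO2 the order was ZFP36L2 (111 ± 11.9), ZFP36 (29.8 ± 3.81), BTG1 (7.19 ± 0.47), BTG2 (5.69 ± 1.37), ZC3H12A (3.39 ± 1.03), RC3H1 (2.96 ± 0.58), ZFP36L1 (2.25 ± 0.40) and ZC3H12C (1.32 ± 0.30). There the neighbours from BTG1 through RC3H1 overlapped.

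With LPS at 5% CO2, BTG2 led at 430 ± 33.99 CPM per kilobase, followed by ZC3H12A (169 ± 0.85), ZFP36 (75.6 ± 8.48), ZFP36L2 (40.6 ± 3.70), BTG1 (18.0 ± 1.69), ZC3H12C (17.2 ± 2.35), ZFP36L1 (4.52 ± 1.56) and RC3H1 (4.45 ± 0.21; SD, n = 3). BTG1 overlapped ZC3H12C, and ZFP36L1 overlapped RC3H1. With LPS at 10% CO2 no neighbours overlapped, and the order was BTG2 (436 ± 21.7), ZC3H12A (175 ± 6.28), ZFP36 (53.1 ± 2.09), ZFP36L2 (33.4 ± 1.95), ZC3H12C (20.0 ± 2.80), BTG1 (15.3 ± 0.36), RC3H1 (5.43 ± 0.47) and ZFP36L1 (3.78 ± 0.47). LPS thus put the deadenylation adaptor BTG2 and the nuclease ZC3H12A above ZFP36L2 and ZFP36, which had held the top of the order without it.

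**Figure D4:**
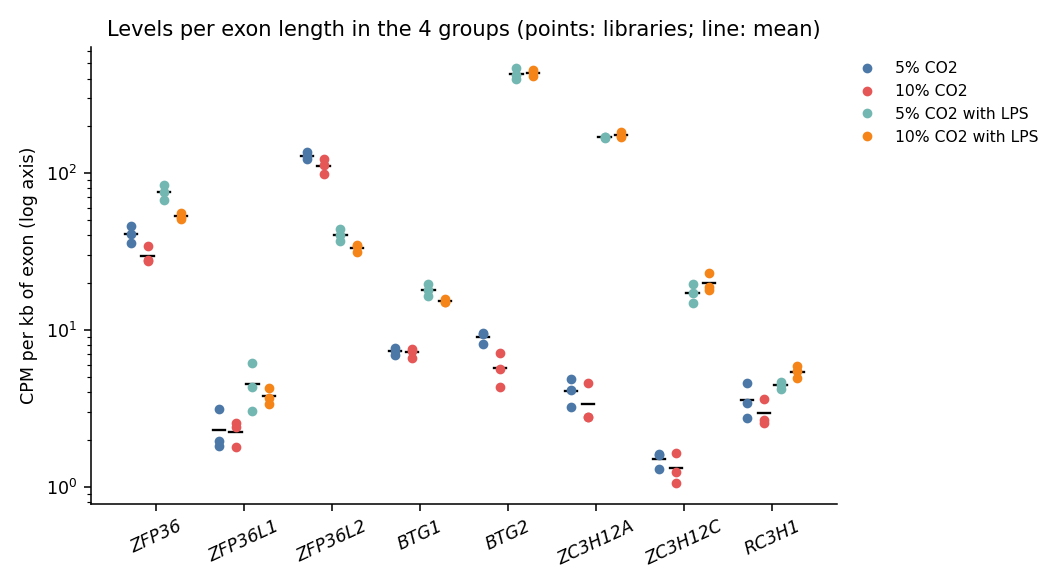
Levels of the 8 genes per exon length. Points are single libraries and lines the mean of 3, as CPM per kilobase of exon on a log y axis, in the 4 groups by colour; BTG2 moves from 9.06 to 430 CPM per kilobase with LPS at 5% CO2, and ZFP36L2 from 129 to 40.6.

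For each gene, the 3 other genes whose log2 CPM was most like it over the 12 libraries were found among the 10811 genes averaging 5 CPM or more. Since the libraries fall into clusters with and without LPS, these Pearson correlations mostly restate the LPS response and are a description, given beside the correlation of deviations from the group means. BTG2 was most like NR4A3 (r = 0.999, within groups 0.817), SOCS3 (0.998, 0.594) and ICAM1 (0.998, 0.568). ZC3H12A was most like CCL3 (0.999, 0.897), JUNB (0.999, 0.893) and CCL3L3 (0.998, 0.709). CCL3 and CCL3L3 are near-identical copies, so the counts of both are uncertain. ZC3H12C was most like NFE2L2 (0.998, 0.951), PUS10 (0.998, 0.898) and REL (0.997, 0.877). BTG1 was most like SLC12A7 (0.992, 0.561), SERPINB8 (0.990, 0.550) and ZBTB5 (0.989, 0.778).

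ZFP36L2, the gene that fell, was most like PRAG1 (r = 0.995, within groups 0.648), THBD (0.992, 0.644) and TNFSF14 (0.992, 0.599). ZFP36 was most like FBRS (0.978, 0.669), APLP2 (0.975, 0.728) and LRRC8A (0.972, 0.750). ZFP36L1 was most like SLC7A5 (0.962, 0.892), PLIN2 (0.950, 0.857) and SLC43A2 (0.947, 0.857). RC3H1 was most like its own paralogue RC3H2 (0.982, 0.935), then FAM76B (0.976, 0.927) and DHX36 (0.966, 0.861). All of these correlations share the same 12 libraries and their depth.

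The other genes of the pathway were read from lists drawn up with earlier results on these libraries known, and are described by counts and medians. All list counts are to be read beside the shares of all tested genes. By edgeR, LPS raised 11.8% and lowered 13.1% at 5% CO2, and raised 16.6% and lowered 18.6% at 10% CO2. Hypercapnia lowered 0.665% and raised 0.799% without LPS, and lowered 4.46% and raised 4.29% with it. At an unadjusted p under 0.05 the shares were 17.4% and 24.9% for CO2 without and with LPS, and 35.2% and 43.8% for LPS at 5% and 10% CO2. Of 10 paralogues and relatives of the 8 genes, 9 were tested. TOB1, another CAF1-binding protein of the BTG/TOB family, was lower in hypercapnia without LPS (-0.63 ± 0.10, edgeR adjusted p = 0.0124) and with LPS (-0.49 ± 0.11, adjusted p = 0.00944), as ZFP36 was. NYNRIN, which like the Regnases has a NYN/PIN-type domain, was lower with LPS (-0.46 ± 0.14, adjusted p = 0.0436), and KHNYN without LPS was at -0.31 ± 0.09 (adjusted p = 0.0774). None of the 9 was called higher by edgeR in either CO2 comparison, with 3 at an unadjusted p under 0.05 in each, and DESeq2 called 0 higher without LPS and 1 with it. LPS raised 1 of 9 and lowered 4 at 5% CO2, and raised 2 and lowered 4 at 10% CO2. BTG3 rose by 2.15 ± 0.09 and 2.25 ± 0.09 (edgeR adjusted p = 6.92e-13 and 2.39e-13), and TOB2 fell by 0.69 ± 0.10 and 0.65 ± 0.10 (adjusted p = 2.01e-05 and 3.04e-05). The median of the list was -0.14 and -0.18 in the CO2 comparisons without and with LPS, and -0.01 and -0.31 in the LPS comparisons at 5% and 10% CO2.

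Of 21 other AU-rich element or stem-loop binding proteins, edgeR called none between the CO2 levels without LPS (5 at an unadjusted p under 0.05, 0 in DESeq2; median -0.14). The smallest p-values there belonged to PCBP2 (-0.23 ± 0.07, edgeR adjusted p = 0.115) and SAMD4B (-0.25 ± 0.09, adjusted p = 0.136). With LPS, CELF1, a GU-rich element binder, was higher at 10% CO2 (0.37 ± 0.09, adjusted p = 0.0178) and ARID5A, known to stabilise IL6 mRNA against Regnase-1, was lower (-0.81 ± 0.20, adjusted p = 0.0279), with a median of 0.04 for the list. LPS raised 5 of the 21 at 5% CO2 and 8 at 10% CO2 and lowered none by edgeR or DESeq2 (7 and 12 at an unadjusted p under 0.05). CPEB4, a cytoplasmic polyadenylation element binder, rose by 0.73 ± 0.13 at 5% CO2 (edgeR adjusted p = 0.000282) and by 1.203 ± 0.13 at 10% CO2 (adjusted p = 6.03e-07). CPEB2 rose by 0.64 ± 0.13 at 5% CO2 (adjusted p = 0.00161) and CELF1 by 0.67 ± 0.09 at 10% CO2 (adjusted p = 9.69e-06).

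Of 17 deadenylation genes, PAN3, the regulatory subunit of the PAN2-PAN3 deadenylase, was lower in hypercapnia without LPS (-0.51 ± 0.12, edgeR adjusted p = 0.0425) and with it (-0.43 ± 0.12, adjusted p = 0.0339), and no other was called. TNKS1BP1, a CCR4-NOT associated protein, was at 0.30 ± 0.10 without LPS (adjusted p = 0.128), and the poly(A) ribonuclease PARN at -0.28 ± 0.10 with LPS (adjusted p = 0.0750). LPS raised 1 and lowered 1 of the 17 at 5% CO2, CNOT9 (0.23 ± 0.08, adjusted p = 0.0364) and CNOT8 (-0.28 ± 0.08, adjusted p = 0.0144), both of the CCR4-NOT complex. At 10% CO2 it raised 5 and lowered 2, among them the poly(A)-binding protein gene PABPC1 (0.36 ± 0.08, adjusted p = 0.00237) and TNKS1BP1 (-0.49 ± 0.10, adjusted p = 0.00101). The shares of all genes raised and lowered were 11.8% and 13.1% at 5% CO2 and 16.6% and 18.6% at 10% CO2. The median of the list was -0.07 and 0.00 in the CO2 comparisons without and with LPS.

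Of 21 decapping and 5′ to 3′ decay genes, the decapping activator PATL1 was lower in hypercapnia without LPS (-0.34 ± 0.08, edgeR adjusted p = 0.0433) and at -0.26 ± 0.08 with LPS (adjusted p = 0.0516). LSM6, of the LSM ring, was higher with LPS (0.34 ± 0.09, adjusted p = 0.0282), and LSM2 was at 0.27 ± 0.10 without LPS (adjusted p = 0.157). The medians of the list were -0.05 and 0.06. LPS raised 2 and lowered 5 of the 21 at 5% CO2, against 11.8% and 13.1% of all genes. It raised 3 and lowered 4 at 10% CO2, against 16.6% and 18.6%, and there DESeq2 called 7 higher and 4 lower. PATL1 rose by 0.49 ± 0.08 and 0.57 ± 0.08 (edgeR adjusted p = 0.000166 and 2.12e-05), and EIF4ENIF1, which encodes the eIF4E transporter, fell by 0.84 ± 0.09 and 0.77 ± 0.09 (adjusted p = 9.9e-07 and 2.53e-06).

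Of 23 genes of the exosome and nonsense-mediated decay, edgeR called none between the CO2 levels without LPS (7 at an unadjusted p under 0.05, 0 in DESeq2; median 0.07). EXOSC5 and EXOSC2, subunits of the exosome core, had the smallest p-values there (0.37 ± 0.11, edgeR adjusted p = 0.0947, and 0.25 ± 0.08, adjusted p = 0.126). With LPS, the exosome nuclease gene EXOSC10 was lower at 10% CO2 (-0.30 ± 0.07, adjusted p = 0.0186) and SKIC3, of the SKI complex, was higher (0.38 ± 0.11, adjusted p = 0.0355), with a median of 0.07. LPS raised 1 and lowered 4 at 5% CO2, against 11.8% and 13.1% of all genes. It raised 3 and lowered 6 at 10% CO2, against 16.6% and 18.6%. EXOSC9 rose by 0.39 ± 0.08 and 0.47 ± 0.08 (edgeR adjusted p = 0.00143 and 0.00021), and DIS3L fell by 0.46 ± 0.09 at 10% CO2 (adjusted p = 0.000463).

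**Figure D5:**
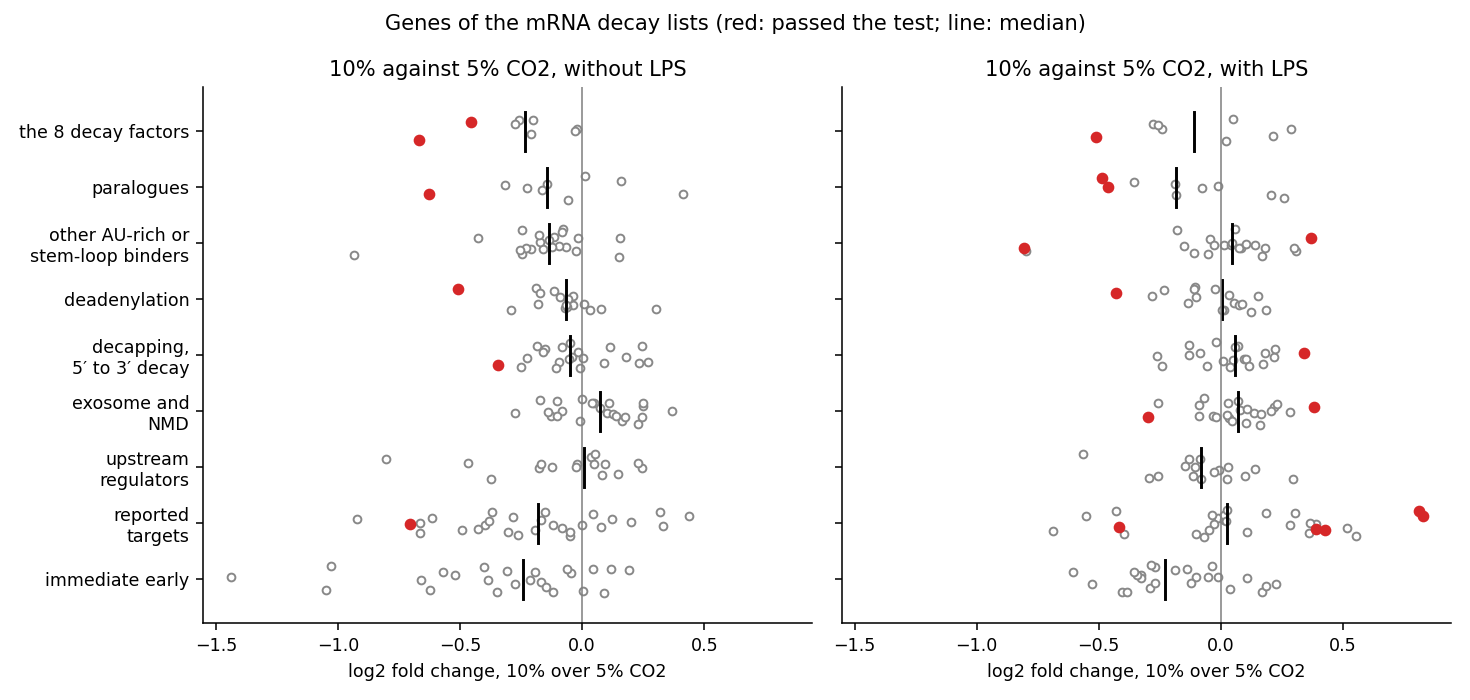
CO2 differences of the 8 genes and of the lists around them. Each point is a gene's edgeR log2 fold change of 10% over 5% CO2 (x axis, n = 3 libraries a group), without LPS on the left and with LPS on the right; red points had an adjusted p under 0.05, bars are list medians, and vertical jitter has no meaning. Among the decay machinery, the red points are single genes such as PAN3 (-0.51 and -0.43) and PATL1 (-0.34 without LPS).

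Of 16 regulators upstream of these factors, kinases, phosphatases and adaptors of the Toll-like receptor pathway, edgeR and DESeq2 called none between the CO2 levels (4 without LPS and 2 with LPS at an unadjusted p under 0.05; medians 0.01 and -0.08). The smallest p-values belonged to TRAF6 (-0.37 ± 0.12, edgeR adjusted p = 0.113) and MAPK14 (0.24 ± 0.09, adjusted p = 0.167) without LPS, and to IRAK4 (0.30 ± 0.10, adjusted p = 0.0824) and MAPKAPK2 (-0.30 ± 0.12, adjusted p = 0.133) with LPS. MAPKAPK2 encodes the MK2 kinase that phosphorylates ZFP36, and MAPK14 the p38α kinase upstream of it. LPS raised 4 and lowered 3 of the 16 at each CO2 level. Of all genes it raised 11.8% and lowered 13.1% at 5% CO2, and 16.6% and 18.6% at 10% CO2. DUSP1, the phosphatase that limits p38 activity, rose by 3.23 ± 0.23 and 2.92 ± 0.22 (edgeR adjusted p = 8.86e-09 and 2.35e-08), PPP2CA rose by 0.55 ± 0.09 at 5% CO2 (adjusted p = 7.46e-05) and MAPK14 fell by 0.88 ± 0.09 at 10% CO2 (adjusted p = 3.45e-07).

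Of 32 mRNAs reported elsewhere as targets of these factors, 28 were tested. LPS raised 25 and lowered 1 at each CO2 level, with medians of 5.98 and 6.50. The smallest p-values belonged to NFKBIZ (7.40 ± 0.12 and 7.42 ± 0.12, edgeR adjusted p = 7.43e-19 and 7.12e-19) and CCL4 (9.70 ± 0.18 and 10.05 ± 0.18, adjusted p = 8.98e-18 and 5.69e-18). CCL4 has a near-identical copy, CCL4L2, so its counts are uncertain. Without LPS, hypercapnia lowered 1 of the 28, NFKBID (-0.71 ± 0.16, adjusted p = 0.0382), an atypical IκB, and DESeq2 called 3 lower; the median was -0.18, and CCND1 was at 0.33 ± 0.10 (adjusted p = 0.108). With LPS, 4 of the 28 were higher at 10% CO2: IL12B (0.81 ± 0.16, adjusted p = 0.00895) and IL23A (0.83 ± 0.20, adjusted p = 0.0313), which encode the IL-12/IL-23 p40 and the IL-23 p19 subunits, CCL4 (0.39 ± 0.11, adjusted p = 0.0340), and cyclin D1 (CCND1, 0.42 ± 0.10, adjusted p = 0.0127). MYC was lower (-0.42 ± 0.10, adjusted p = 0.0195), and the median was 0.02. IL6, a main Regnase-1 target, had no count in any unstimulated library and stood at 1.48 ± 0.73 CPM at 5% CO2 with LPS and 2.14 ± 0.71 CPM at 10% CO2 with LPS (SD, n = 3). A change in a target's level was not tested against the level of any of the 8 factors.

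BTG2 and ZFP36 are commonly counted among immediate early genes, and 24 other genes of that class were read beside them. LPS raised 20 of the 24 at each CO2 level and lowered none by edgeR or DESeq2 (22 at an unadjusted p under 0.05), with medians of 1.43 and 1.51. EGR2 rose by 6.76 ± 0.15 and 7.37 ± 0.16 (edgeR adjusted p = 4.32e-17 and 2.76e-17) and NR4A3 by 5.97 ± 0.16 and 7.25 ± 0.17 (adjusted p = 4.57e-16 and 9.31e-17). Between the CO2 levels edgeR called none of the 24 in either condition (10 without LPS and 7 with LPS at an unadjusted p under 0.05), and DESeq2 called 2 lower without LPS and 0 with it. The medians were -0.24 without LPS and -0.23 with it, and 19 of the 24 values were negative in each condition. NR4A3 was at -1.05 ± 0.28 (edgeR adjusted p = 0.0673) and FOSB at -1.03 ± 0.28 (adjusted p = 0.0710) without LPS, and KLF2 at -0.60 ± 0.22 (adjusted p = 0.0876) and FOSL1 at -0.29 ± 0.11 (adjusted p = 0.111) with LPS. The summed level of the class was 1039 to 1247 CPM at 5% CO2 and 931 to 1091 CPM at 10% CO2, and with LPS 2790.4 to 3472 and 2819 to 2947 CPM, so the CO2 groups overlapped in both conditions. Its part in the lower BTG2 and ZFP36 levels was not tested.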

How the data were processed

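The deposited values were raw counts of reads assigned to Ensembl genes, in 1 featureCounts-style table for each library. The submitters' processing notes name Trimmomatic 0.36, STAR 2.5.2b, featureCounts with Subread 1.5.2, and the build GRCh38. Whether counting used strand, how multi-mapped reads were treated and which annotation release was used is not given in the sources used here, so counts of overlapping, antisense or near-identical genes are uncertain. Groups and replicate numbers came from the sample titles. Symbols were found for 40907 of 57500 identifiers, which held 99.1% of the counts. Within groups, all 12 pairs of libraries differed beyond counting error (chi-square over its degrees of freedom, 8.52 to 28.3), and each library was kept as 1 sample. 

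The counts were tested with edgeR 4.0.16 in R 4.3.3 (filterByExpr, TMM normalisation, robust quasi-likelihood fit of 4 group means to 12 libraries, 8 residual degrees of freedom, common biological variation 10.7%), with Benjamini-Hochberg adjustment over 16402 genes and a threshold of 0.05. The main model had no replicate block. The script was tested on simulated data. Levels are TMM-normalised CPM, and levels between genes are CPM per kilobase of the tables' exon length.

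The 8 genes and all lists were chosen with earlier results of these data known. Named genes are the 8 members, the 3 genes most like each, and the 2 genes of each list with the smallest p in each pairwise comparison; where a list's called genes were few, the others (IL23A, CCL4 and MYC with LPS) were named after their values were seen. One gene that the rule selects is not reported here. IL6 and the abundant or absent cell type markers were also named after their values were seen. Alternatives were DESeq2 size factors in edgeR, DESeq2 1.42.0 without independent filtering, no filter on low counts, only the compared groups, the replicate block and leaving out each library in turn. A correction for GC content, alone and with the block, was added after seeing the data; 99.1% of tested genes had a GC value. Promoter sequences are from RefSeq (GRCh38.p14), and a planned comparison of protein sequences was not run.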

Additional observations from a re-analysis of the deposited data

How the results depend on the processing

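Over the 8 genes no value that passed the test changed sign in any alternative. The LPS calls of BTG2, ZC3H12A, ZC3H12C, BTG1, ZFP36 and ZFP36L2 at both CO2 levels, and of RC3H1 at 10% CO2, held in all 19 alternatives. The CO2 calls rested on few libraries. Without LPS, 240 genes were called, and 550 in DESeq2, 572 without the filter on low counts, 699 with the replicate block, 812 with the GC correction, 1897 with both, and 71 in the compared groups alone, where 0 of the 8 genes was called instead of 2. Leaving out 1 library gave 0 to 511 genes and 0 to 2 members: 0 genes without replicate 2 and 511 without replicate 1 at 10% CO2, 1, 4 and 139 without replicates 1, 2 and 3 at 5% CO2, and 143 without replicate 3 at 10% CO2 with LPS. With LPS, 1435 genes were called, and 2881 with the GC correction and the block. Members called went from 1 to 2 without the filter, with the replicate block, with the GC correction, with both, and in the compared groups. Leaving out 1 library gave 271 to 1804 genes (414 and 458 without replicates 1 and 2 at 5% CO2 with LPS, 271 and 917 without replicates 2 and 3 at 10% CO2 with LPS) and 0 to 2 members. For LPS, leaving out 1 library gave 3116 to 4371 genes at 5% CO2 (4092 with all) and 4652 to 5923 at 10% CO2 (5773 with all), with 6 to 7 and 7 to 8 members. For the dependence of the CO2 effect on LPS, 4 genes were called, and 1 with DESeq2 size factors, 47 in DESeq2, 108 without the filter (with 1 member, BTG2), 11 with the block, 30 with the GC correction and the block, and 1 to 37 without 1 library (37 without replicate 3 at 5% CO2 with LPS, 26 without replicate 1 at 10% CO2, where 1 member was called). The causes were not tested. No scaling moved the median of all genes by over 0.1 on the log2 scale.

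The main model did not take replicate numbers to pair the libraries, and whether they do was not settled. Deviations of the 18 same-numbered pairs from their group means correlated at -0.14 to 0.29 (median 0.10), with 9 of the 18 over 0.1. The 36 pairs with different numbers had a median of -0.06 (-0.29 to 0.21). For 4 of 12 libraries, the best match in every other group bore the same number, which is stricter than a best match in any single group. With the replicate block, the change among the members' calls was that of ZFP36L2 between the CO2 levels with LPS, which passed (adjusted p = 0.0361). With the block and the GC correction together, BTG1 between the CO2 levels with LPS (adjusted p = 0.0043) and RC3H1 with LPS at 5% CO2 (adjusted p = 0.0401) passed. The lowest library count among the 8 genes was 171, and the part of depth in their calls was not tested.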
